A study of Mus musculus with 18 samples.

Results

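Chromatin accessibility was examined around Chrna1, Chrnb1, Chrnd and Chrng, the genes of 4 subunits of the muscle acetylcholine receptor. The members were the ATAC-seq peaks whose summit lay in 1 of 3 windows of the mouse mm9 build: chr2:73360000-73460000 for Chrna1, chr11:69560000-69640000 for Chrnb1, and chr1:89050000-89140000 for Chrnd and Chrng together. ATAC-seq maps open chromatin by the sites at which a transposase can insert into DNA. Overlapping peaks of the lists were joined into merged regions, and 52 of 141979 merged regions belonged to the windows, 22 at Chrna1, 15 at Chrnb1 and 15 at Chrnd and Chrng. The members numbered 40 of 98097 peaks in wild-type myoblasts, 43 of 101755 in MyoD-null myoblasts, 47 of 112030 in myocytes deposited as wild type and 45 of 88233 in myocytes deposited as MyoD-null.

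The study profiled skeletal muscle cells of wild-type and MyoD-null mice as myoblasts, the proliferating precursor cells, and as myocytes after myogenic differentiation for 24 h. MyoD is the myogenic transcription factor missing from the knockout cells. Each of the 4 groups has 3 samples in the labels, but the deposited lists hold 1 merged list per group, so no replicate error could be computed and no test was possible. The labels give neither the age of the mice nor whether the 3 samples of a group came from separate animals. The 6 RNA-seq samples of the C2C12 muscle cell line, with and without CTCF knockdown, were not analysed here, and the labelled cell types were not checked against marker genes, since the lists hold no expression values.

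The genotype of the myocytes is uncertain. In the list deposited as wild-type myocytes, the peak names carry the mark MKO, and in the list deposited as MyoD-null myocytes they carry the mark WT. The peak names of both myoblast lists match their labels. Each comparison with a myocyte list therefore has its region counts and median fold ratio by the deposited label and by the peak names. Values relative to the genome-wide median ratio are given by the deposited label alone. A prefix stands before the peak names of the myocyte lists alone, and the cells' stage and a difference in how the lists were made cannot be told apart.

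The muscle acetylcholine receptor is the ion channel that opens when motor nerves release acetylcholine at the neuromuscular junction. It is built from alpha1, beta1 and delta subunits together with the gamma subunit in fetal muscle, which the epsilon subunit replaces as muscle matures. Transcription of the subunit genes is switched on as myoblasts differentiate, and their promoters are textbook targets of the MyoD family, basic helix-loop-helix factors that bind the E-box, CANNTG. Later, synaptic nuclei under the nerve ending express the genes most strongly, and the N-box, CCGGAA, bound by Ets factors, is known for that part of their control.

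Because the knocked-out factor binds E-boxes, the 250 bases before the annotated start of the genes are shown, 5′ to 3′ on the gene's strand, with every E-box in capitals. They are RefSeq promoters of build GRCm38.p6, which is not the build of the peaks: Chrna1 at chr2:73580339-73580588 on the minus strand, Chrnb1 at chr11:69795938-69796187 on the minus strand and Chrng at chr1:87205561-87205810 on the plus strand. RefSeq matches were used for 3 of the 4 genes, and the remaining gene is Chrnd.
Chrna1: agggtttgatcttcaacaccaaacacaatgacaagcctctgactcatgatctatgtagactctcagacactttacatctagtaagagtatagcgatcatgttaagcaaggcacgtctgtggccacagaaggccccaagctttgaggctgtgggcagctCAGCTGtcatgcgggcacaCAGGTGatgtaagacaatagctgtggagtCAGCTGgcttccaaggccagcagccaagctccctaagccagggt
Chrnb1: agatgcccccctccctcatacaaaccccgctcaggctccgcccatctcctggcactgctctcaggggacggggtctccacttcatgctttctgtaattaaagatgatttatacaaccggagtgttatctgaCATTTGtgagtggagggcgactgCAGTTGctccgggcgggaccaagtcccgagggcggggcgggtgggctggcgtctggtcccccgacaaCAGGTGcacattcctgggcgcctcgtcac
Chrng: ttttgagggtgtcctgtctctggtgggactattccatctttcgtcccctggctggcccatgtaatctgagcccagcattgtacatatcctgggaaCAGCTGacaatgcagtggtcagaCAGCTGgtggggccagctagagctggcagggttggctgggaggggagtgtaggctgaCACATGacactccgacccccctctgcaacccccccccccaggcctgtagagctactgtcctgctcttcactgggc

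Each of these 3 promoters held 3 E-boxes, a count reached by 12.2% of the 32851 mouse promoters searched over the same length, of which 66.2% held 1 or more. At Chrna1 the E-boxes were CAGCTG at -92, CAGGTG at -73 and CAGCTG at -44, counted from the start site to the first base of the motif. At Chrng they were CAGCTG at -155, CAGCTG at -132 and CACATG at -75. Chrna1 and Chrng thus shared a pair of CAGCTG motifs, a count reached by 1.26% of all promoters. At Chrnb1 the E-boxes were CATTTG at -119, CAGTTG at -96 and CAGGTG at -29, with no CAGCTG, which 13% of promoters hold. The form CAGGTG, read on both strands and so including CACCTG, occurred in 17.2% of promoters. No N-box, CCGGAA or its reverse complement TTCCGG, was found in the 3 sequences, against 12% of all promoters with 1 or more. A match is a description of the letters and not a bound site. Which of the peaks below covers a promoter was not determined, because no mm9 annotation was used.

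In the gene order of GRCm38.p6, Chrna1 lies between Wipf1 and Chn1, Chrnb1 between Zbtb4 and Fgf11, and Chrnd between Prss56 and Chrng, which is followed by Eif4e2. The windows may hold peaks of those neighbours too, so a peak is given by its position and assigned to no gene.

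The values of the lists are fold enrichments, the authors' own: reads piled up at the summit plus 1, divided by the local background plus 1. The whole number of summit reads and the local background behind every peak could be solved from the fold and its p-value. Summit reads in the windows ranged from 24 to 149 in wild-type myoblasts, 31 to 166 in MyoD-null myoblasts, 25 to 189 and 18 to 174 in myocytes deposited as wild type and as MyoD-null. The genome-wide background was 8.18, 8.54, 5.29 and 6.34 reads in the same order. Intervals below are exact 95% Poisson intervals of the summit reads, with the background taken as known. They cover counting error only, and reads copied by PCR are not independent molecules. In bulk chromatin, a lower fold in all cells and an open site in fewer cells cannot be told apart.

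All 3 windows were dense in peaks in every list. The Chrna1 window held 18 peaks in wild-type myoblasts, 17 in MyoD-null myoblasts, 17 in myocytes deposited as wild type and 19 in myocytes deposited as MyoD-null, against a mean of 3.34 to 4.24 peaks per 100 kb tile of the genome. Between 0.318% and 2.58% of tiles held at least as many. The Chrnb1 window held 11, 12, 15 and 12 peaks in that order, against 2.67 to 3.39 per 80 kb tile, and 1.68% to 4.29% of tiles reached those counts. The window of Chrnd and Chrng held 11, 14, 15 and 14 peaks, against 3.01 to 3.82 per 90 kb tile, and 2.01% to 6.59% of tiles reached them. As deposited, the myocytes labelled wild type had the most peaks in the windows of Chrnb1 and of Chrnd and Chrng, but theirs is also the longest list. With all lists cut to equal length, the counts were 9, 10, 12 and 12 at Chrnb1 and 11, 14, 13 and 14 at Chrnd and Chrng, so that order was lost. At Chrna1 they were 17, 17, 16 and 19, highest in the list deposited as MyoD-null myocytes. That list is the shortest, so the cut leaves its count unchanged. With a q of 1e-05 or lower the Chrna1 counts were 17, 17, 17 and 16, lowest in that list.

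The member peaks had many reads but a modest fold. The median peak of the windows had 58 to 66 summit reads, depending on the list, against 45 to 47 over the whole lists. Its fold was 3.49 in wild-type myoblasts, 3.59 in MyoD-null myoblasts, 4.26 in myocytes deposited as wild type and 3.98 in myocytes deposited as MyoD-null, against 3.75, 3.73, 4.8 and 4.42 for the whole lists. The local background stood beside this: its median was 2.04 to 2.76 times the genome-wide background in the windows and 1.26 to 1.42 times over the lists. The upper quartile of fold in its list was reached by 9 of 40 and 9 of 43 member peaks in myoblasts, but by 3 of 47 in myocytes deposited as wild type and 5 of 45 in myocytes deposited as MyoD-null.

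**Figure D1:**
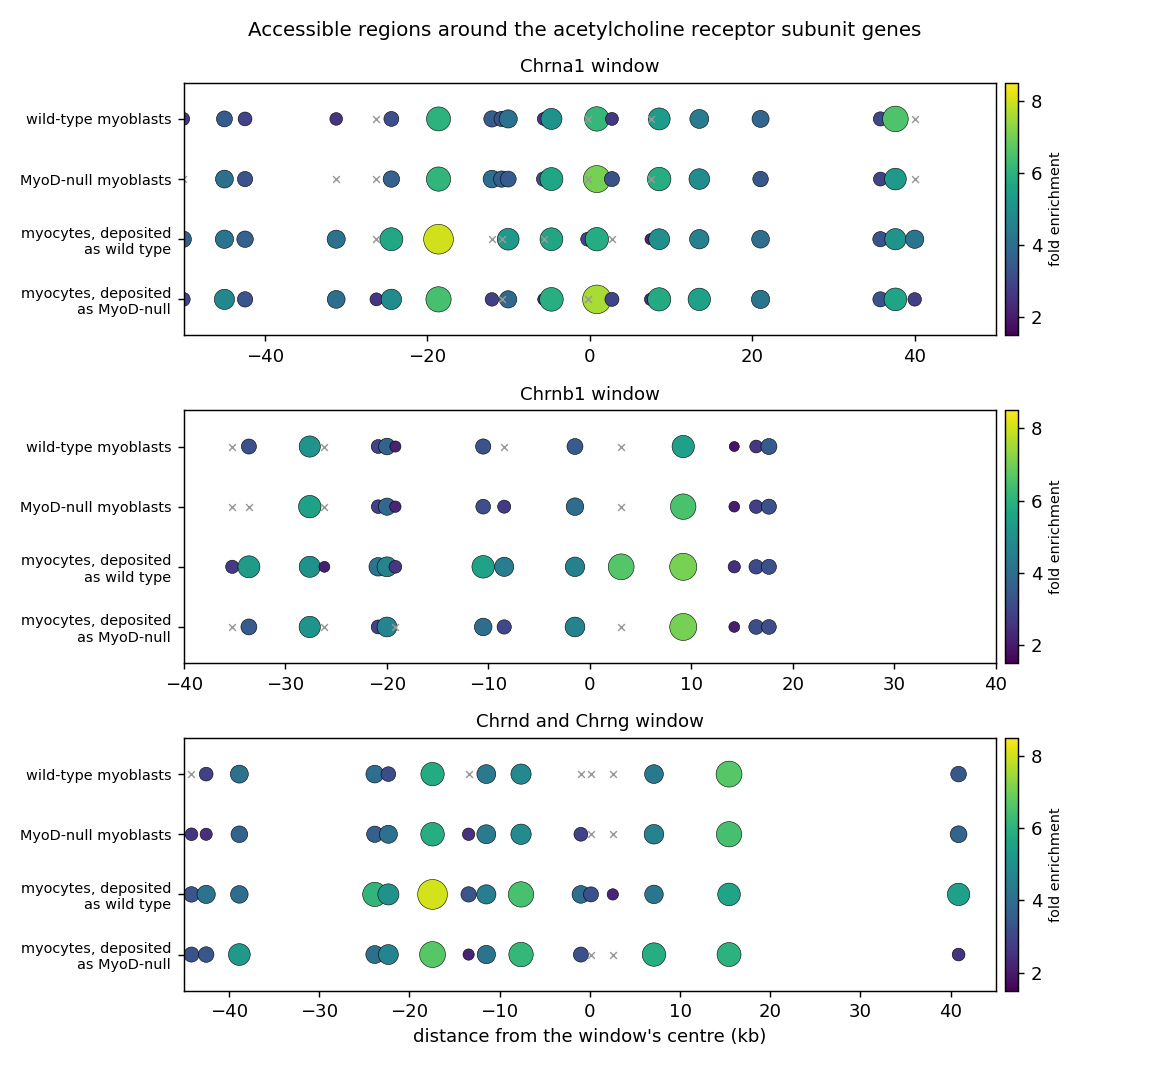
Merged regions of the 3 windows by distance from the window's centre in kb (x axis) in each of the 4 lists (rows). Colour gives the fold enrichment on a linear scale, dots grow with the fold, and a grey cross marks a region of the window with no peak in that list; 31 of 52 regions carry a dot in all 4 rows.

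Most regions were listed in all groups. A peak was listed in all 4 lists for 31 of 52 regions, 59.6%, against 45.9% of merged regions genome-wide. By window these were 12 of 22 at Chrna1, 9 of 15 at Chrnb1 and 10 of 15 at Chrnd and Chrng. The summits of those 31 regions spread over a median of 91 bp between lists, the same as the genome-wide median, and over 10 to 774 bp in all. Of the other regions, 11 were in 3 lists, 21.2% against 11.4% genome-wide, 3 in 2 lists, 5.77% against 13.7%, and 7 in 1 list, 13.5% against 28.9%. None of the 52 was listed in 1 myoblast list alone, where genome-wide 3.74% were in that of the wild type alone and 5.45% in that of the MyoD-null alone.

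The 13 regions described in full below were chosen by their folds: the 4 with the highest fold of any list in each window, and those with a fold of at least 5 that a list lacked. That a list is high in such a region can follow from this choice, so their values are a description and support no difference between lists.

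Chrna1 encodes the alpha1 subunit, which carries the acetylcholine binding site. The highest fold of its window was at chr2:73390862-73391885, with 6.0 (4.63 to 7.66) in wild-type myoblasts, 6.08 (4.72 to 7.71) in MyoD-null myoblasts, 7.99 (6.19 to 10.2) in the list deposited as wild-type myocytes, and 6.43 (4.93 to 8.25) in that deposited as MyoD-null myocytes. These folds rested on 63, 66, 65 and 60 summit reads, over local backgrounds of 9.66, 10.02, 7.26 and 8.48 reads. Divided by each list's genome-wide background, the summit reads were 7.70, 7.73, 12.3 and 9.47 times it. The myocytes deposited as wild type were highest on both scales, and the intervals of all 4 folds overlap.

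The region chr2:73410444-73411301 had folds of 6.15 (4.97 to 7.53), 7.03 (5.81 to 8.43), 5.80 (4.66 to 7.13) and 7.58 (6.28 to 9.08) in the same order of lists, on 92, 114, 87 and 117 summit reads. MyoD-null myoblasts and myocytes deposited as MyoD-null, wild type by their peak names, were the higher pair by fold, and all 4 intervals overlap. Divided by each list's genome-wide background, the reads were 11.25, 13.3, 16.5 and 18.5 times it, so both myocyte lists were the higher ones on that scale. The region chr2:73447122-73448159 ran the other way in myoblasts, with a wild-type fold of 6.55 (5.30 to 8.0), a MyoD-null fold of 5.26 (4.16 to 6.55) and 5.12 and 5.59 in myocytes deposited as wild type and as MyoD-null. Its highest fold was the wild-type myoblast one, and the intervals of all 4 lists overlap. Divided by each list's genome-wide background, its summit reads were 11.4, 9.01, 14.95 and 12.3 times it. On that scale both myocyte lists were above both myoblast lists. At chr2:73405058-73405490 the folds were 5.04, 5.65, 5.61 and 5.89, a spread smaller than any of their intervals. Over all peaks of the Chrna1 window the folds ran from 2.56 to 6.55 in wild-type myoblasts, 2.23 to 7.03 in MyoD-null myoblasts, 2.19 to 7.99 in the list deposited as wild-type myocytes and 2.43 to 7.58 in that deposited as MyoD-null, with medians of 3.53, 3.63, 4.19 and 4.04.

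The Chrna1 window was also the only window of the 3 with regions listed in just a pair of lists, 3 of 22. That is 13.6%, near the genome-wide share of 13.7%, and each other window had 0 of 15. The regions named in this paragraph were picked after their values were seen. Both myocyte lists but neither myoblast list held chr2:73449839-73450180, with folds of 4.18 and 2.80 in myocytes deposited as wild type and as MyoD-null, and chr2:73417318-73417646, with 2.19 and 2.47. At the nearest listed peak's background, chr2:73449839-73450180 would have needed 28 summit reads to be listed for wild-type myoblasts and 29 for MyoD-null ones. Both myoblast lists but neither myocyte list held chr2:73398958-73399328, with a wild-type fold of 3.28 and a MyoD-null fold of 3.58. Its neighbour chr2:73397761-73398136 was missing from the myocytes deposited as wild type, with folds of 3.58, 4.0 and 2.80 in the other lists.

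Chrnb1 encodes the beta1 subunit, a structural subunit of the channel. The strongest region of its window, chr11:69608695-69609722, had folds of 5.45 (4.55 to 6.48) in wild-type myoblasts, 6.50 (5.53 to 7.59) in MyoD-null myoblasts, 7.06 (6.05 to 8.18) in the list deposited as wild-type myocytes, and 7.03 (6.01 to 8.16) in that deposited as MyoD-null myocytes. The reads were 126, 156, 173 and 170 over local backgrounds of 22.3, 23.16, 23.66 and 23.34. Wild-type myoblasts were the lowest, and the ratio to them excluded 1 by counting error in both myocyte lists, at 1.29 (1.02 to 1.65) and 1.29 (1.02 to 1.64). These ratios were 1.02 and 1.13 times the genome-wide median ratios of the same lists, and 47.3% and 26.1% of shared regions genome-wide had higher ones. The summits of this region lay within 17 bp of each other in the 4 lists.

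The region with the most reads of all 3 windows was chr11:69571454-69573377, with 149, 166, 189 and 174 summit reads. Its folds were 5.09, 5.50, 5.07 and 5.13, the most even of the window's 9 regions in all lists. At chr11:69589212-69589789 the folds were 3.29 (2.38 to 4.43), 3.15 (2.32 to 4.17), 5.53 (4.34 to 6.95) and 3.98 (2.90 to 5.35), with 41, 46, 72 and 42 reads. This region is among those chosen through its fold of 5.53 in myocytes deposited as wild type, and its folds in the other lists ran from 3.15 to 3.98.

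A pair of strong Chrnb1-window regions were not in every list. The region chr11:69602788-69603394 was listed in myocytes deposited as wild type and nowhere else, with a fold of 6.62 (5.09 to 8.48) on 61 summit reads over a local background of 8.36. At the background of the nearest listed peak, 20 reads in wild-type myoblasts, 21 in MyoD-null myoblasts and 17 in myocytes deposited as MyoD-null would have been enough to be listed. Relative to each list's genome-wide background, the summit was 11.5 times as high, against the 2.45, 2.46 and 2.68 times needed in those lists. Of the 23132 regions found in that list alone, 7.13% had at least this fold, and their median was 3.79. The region chr11:69566159-69566675 had folds of 3.23 in wild-type myoblasts, 5.35 in myocytes deposited as wild type and 3.48 in myocytes deposited as MyoD-null, on 35, 68 and 41 reads, and was missing from MyoD-null myoblasts. The remaining peaks included the lowest folds of all 3 windows, 1.88, 1.92, 2.10 and 2.08 in the 4 lists, and the window's medians were 3.29, 2.99, 4.45 and 3.31. The bases covered by peaks were 6587, 6962, 9403 and 7876. Median and covered bases were highest in myocytes deposited as wild type, which is also the longest list.

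Chrnd and Chrng encode the delta subunit and the fetal gamma subunit and are direct neighbours. The highest fold of all 3 windows was at chr1:89077054-89078097, with 5.79 (4.85 to 6.85), 5.85 (4.95 to 6.87), 8.02 (6.78 to 9.43) and 6.64 (5.67 to 7.74) in wild-type myoblasts, MyoD-null myoblasts, myocytes deposited as wild type and myocytes deposited as MyoD-null. The reads were 133, 147, 145 and 162 over local backgrounds of 22.16, 24.30, 17.20 and 23.54. Divided by the genome-wide background of the list, they were 16.3, 17.2, 27.4 and 25.6 times it, so both myocyte lists were above both myoblast lists on that scale. The intervals of all 4 folds overlap, but that does not mean that every ratio includes 1. The list deposited as wild-type myocytes had a ratio of 1.39 (1.09 to 1.77) to wild-type and 1.37 (1.08 to 1.74) to MyoD-null myoblasts. Genome-wide, 36.5% and 37.4% of shared regions had higher ratios. For the other myocyte list both intervals included 1, at 1.148 (0.908 to 1.457) and 1.135 (0.903 to 1.43).

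At chr1:89086888-89087866 both myocyte lists had higher folds than both myoblast lists, with 6.45 (5.39 to 7.67) and 6.15 (5.04 to 7.43) against 4.78 (3.87 to 5.85) for wild-type and 4.82 (3.95 to 5.84) for MyoD-null myoblasts. To wild-type and MyoD-null myoblasts, the list deposited as wild-type myocytes had ratios of 1.349 (1.027 to 1.788) and 1.337 (1.025 to 1.755). Genome-wide, 40.7% and 41.1% of shared regions had higher ratios. For the other myocyte list both intervals included 1, at 1.286 (0.966 to 1.72) and 1.275 (0.963 to 1.689), and 26.5% and 26.8% were higher genome-wide. The region chr1:89070824-89071525 was chosen through its fold of 6.08 (4.91 to 7.46) in myocytes deposited as wild type, and had 4.01, 3.59 and 4.06 in wild-type myoblasts, MyoD-null myoblasts and the other myocyte list. At chr1:89109569-89111291 the order of folds was the reverse, with 6.65 for wild-type and 6.44 for MyoD-null myoblasts, above 5.55 and 5.99 for myocytes deposited as wild type and as MyoD-null. The reads there were 126, 141, 142 and 126, and the local backgrounds were 18.1, 21.04, 24.76 and 20.2, so the lower fold in myocytes deposited as wild type went with a higher background. Divided by each list's genome-wide background, the reads were 15.4, 16.5, 26.9 and 19.9 times it. On that scale both myocyte lists were above both myoblast lists, so the order depends on the background used. Over all peaks of this window the median folds were 4.09, 3.72, 4.26 and 4.14, and the lowest folds were 2.44, 2.44, 2.21 and 2.19.

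**Figure D2:**
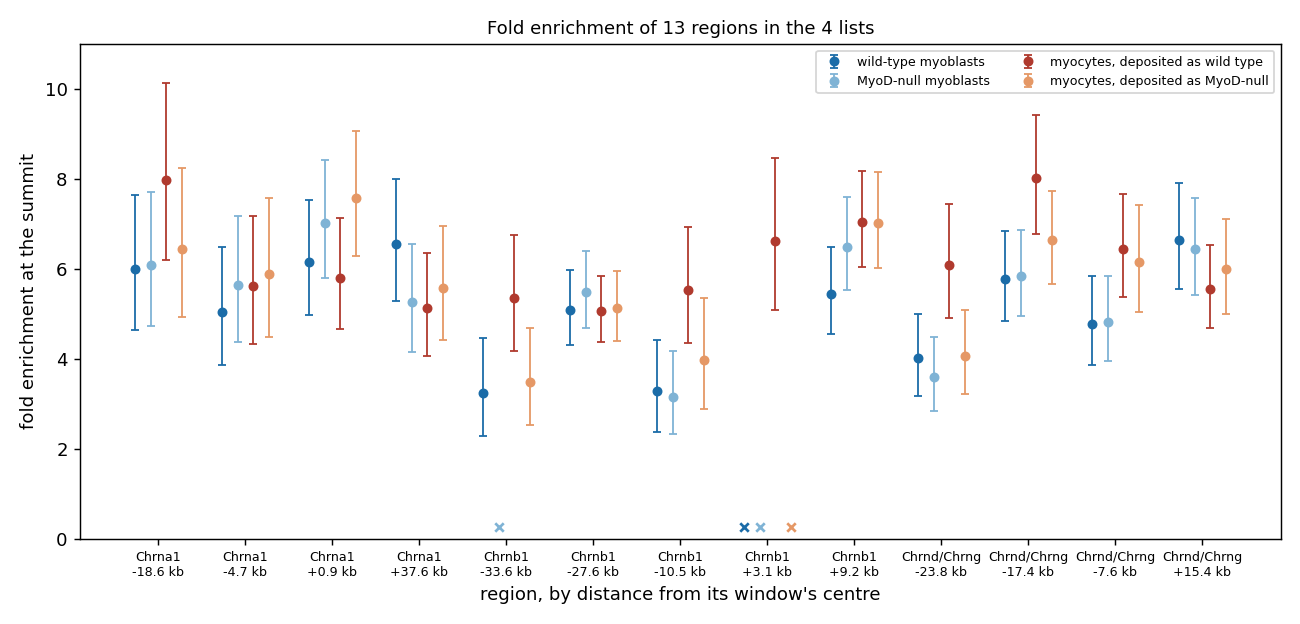
Fold enrichment at the summit (linear y axis from 0) of the 13 regions described in full, by window and distance from its centre (x axis), in the 4 lists. Points are the deposited folds, bars are 95% Poisson intervals of the summit reads (counting error only), and crosses near 0 mark lists without a peak. The region at +3.1 kb of the Chrnb1 window has a point, 6.62, in 1 list alone.

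Differentiation in the wild type asks which regions open or close as myoblasts become myocytes. By the deposited label, 12 regions of the windows were listed in myocytes but not in wild-type myoblasts, out of 47, where 30.1% of all regions of that myocyte list lack a myoblast peak. In the other direction, 4 of 39 myoblast regions were missing from myocytes, where the genome-wide share is 18.3%, and all 4 were in the Chrna1 window. Of the 35 shared regions, 7 had a fold at least 1.5 times as high in myocytes, against 26.0% of shared regions genome-wide, and 0 were lower by that factor, against 0.568%. The median ratio was 1.26 in the windows and 1.27 genome-wide. Relative to the genome-wide median ratio, 0 of 35 were higher by 1.5 times, against 7.76%, and 2 were lower by that factor, against 4.74%. With each list's genome-wide background in place of the local one, 29 of 35 were higher, against 59.8%, and 0 lower, against 0.416%.

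The 7 regions that were higher were all picked by their values, here or through their folds above, and lay in all 3 windows. At Chrna1 they were chr2:73385196-73385924 with a ratio of 1.78 (1.09 to 2.99) and chr2:73378464-73379086 with 1.61 (0.886 to 2.96). At Chrnb1 they were chr11:69589212-69589789 with 1.68 (1.14 to 2.56) and chr11:69566159-69566675 with 1.66 (1.10 to 2.60). At Chrnd and Chrng they were chr1:89072340-89073015 with 1.62 (1.18 to 2.22), chr1:89135598-89136141 with 1.61 (0.980 to 2.69) and chr1:89070824-89071525 with 1.52 (1.11 to 2.08). In 5 of these 7 the counting interval of the ratio lay above 1. Over all 35 shared regions the interval lay above 1 in 9, against 29.1% genome-wide, and below 1 in 0, against 0.528%.

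By the peak names, the wild-type myocytes are the list deposited as MyoD-null. Regions only in myocytes and regions with a higher fold were fewer, in the windows as genome-wide. Then 7 of 44 myocyte regions had no wild-type myoblast peak, against 15.2% genome-wide, and 2 of 39 myoblast regions had no myocyte peak, against 22.6%. Of 37 shared regions, 3 were higher by at least 1.5 times, against 9.37%, and 0 lower, against 0.688%. The median ratio was 1.11, against 1.14 genome-wide. By this reading the counting interval of the ratio lay above 1 in 4 of the 37 and below 1 in 0. With the genome-wide background, 16 were higher and 0 lower, at a median ratio of 1.471, against 1.291 genome-wide. The genome-wide shares of these interval and background counts were not computed for the peak names. The 3 were chr2:73378464-73379086 with 1.58 (0.904 to 2.83), chr2:73385196-73385924 with 1.52 (0.935 to 2.56) and chr1:89072340-89073015 with 1.5 (1.12 to 2.04). These 3 were higher than in wild-type myoblasts by that factor in both myocyte lists.

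Differentiation without MyoD was measured in the same way against MyoD-null myoblasts. By the deposited label, 6 of 44 myocyte regions had no myoblast peak, against 15.9% genome-wide, and 2 of 40 myoblast regions had no myocyte peak, against 25.1%. Among the 38 shared regions, 0 were higher by 1.5 times, against 9.27%, and 0 lower, against 0.939%, and the counting interval of the ratio included 1 in all 38. Genome-wide that interval lay above 1 in 11.6% and below 1 in 0.614%. The median ratio was 1.11, against 1.13 genome-wide. Relative to that median, 0 were higher by 1.5 times, against 3.61%, and 2 lower, against 2.82%. With the genome-wide background, 6 were higher, against 25.1%, and 2 lower, against 1.36%. By the peak names, 11 of 47 myocyte regions had no MyoD-null myoblast peak, against 30.1%, and 4 of 40 myoblast regions had no myocyte peak, against 20.3%. Of the 36 regions then shared, 6 were higher, against 25.9%, and 0 lower, against 0.676%, at a median ratio of 1.18 and a genome-wide median of 1.26. By this reading the counting interval of the ratio lay above 1 in 8 of the 36 and below 1 in 0. With the genome-wide background, 30 were higher and 0 lower, at a median ratio of 1.657, against 1.616 genome-wide. Genome-wide shares of these interval and background counts were again not computed for the peak names.

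The larger count of higher regions went with the list deposited as wild-type myocytes, whichever myoblast list it was set against. The same held for all shared regions genome-wide. Against wild-type and MyoD-null myoblasts, 26.0% and 25.9% were higher in that list, and 9.37% and 9.27% in the other myocyte list. Whether differentiation at these genes depends on the genotype was not tested, because each group has 1 list and the myocyte genotypes are in doubt.

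For MyoD loss in myoblasts, labels and peak names match, and the folds of the windows were close in both genotypes, as they were genome-wide. Among the 36 shared regions, 0 differed by 1.5 times in either direction, where genome-wide 0.414% were higher and 0.247% lower in MyoD-null myoblasts. The ratios ran from 0.803 to 1.32, with a median of 1.06 and a genome-wide median of 1.01, and every one of the 36 counting intervals included 1, where genome-wide 0.232% lay above 1 and 0.138% below. By window the median was 1.12 at Chrna1, 1.05 at Chrnb1 and 1.01 at Chrnd and Chrng. MyoD-null myoblasts held 4 of 40 regions that wild-type myoblasts lacked, against 14.8% genome-wide, and wild-type myoblasts held 3 of 39 that MyoD-null myoblasts lacked, against 12.6%. The 4 were chr11:69591392-69591746, chr1:89050629-89051082, chr1:89081383-89081762 and chr1:89093806-89094230, with MyoD-null folds of 2.68, 2.57, 2.5 and 2.89. The 3 were chr2:73359714-73360127, chr2:73378464-73379086 and chr11:69566159-69566675, with wild-type folds of 2.70, 2.56 and 3.23. All 7 were listed in both myocyte lists as well, and their myoblast folds were below the median of 3.73 to 3.75 of the myoblast lists. Of regions genome-wide in 1 of the 2 myoblast lists, both myocyte lists held 2310 of 14342 from MyoD-null and 2810 of 11908 from wild-type myoblasts.

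MyoD loss in myocytes depends on the reading of the genotype. By the deposited label, 4 of 44 regions of MyoD-null myocytes had no wild-type myocyte peak, against 13.2% genome-wide, and all 4 were at Chrna1. In turn 7 of 47 regions of wild-type myocytes had no MyoD-null peak, against 32.2%. Of 40 shared regions, 0 were higher by 1.5 times in MyoD-null myocytes, against 2.44%, and 3 were lower, against 13.6%. The median ratio was 0.96, against 0.895 genome-wide, and relative to that median 1 was higher, against 5.21%, and 1 lower, against 7.65%. With the genome-wide background, 1 was higher, against 2.92%, and 9 were lower, against 26.4%. The counting interval of the ratio lay above 1 in 1 region, against 2.49%, and below 1 in 4, against 12.7%. By the peak names these directions are exchanged: the same 3 regions were higher in MyoD-null myocytes, against 13.6%, 0 were lower, against 2.44%, and the median ratio was 1.04, against 1.12.

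The 3 regions that differed were higher in the list deposited as wild type, and all 3 were picked by their values, that at chr11 through its fold of 5.35 in this list. At chr11:69566159-69566675 the ratio of the list deposited as MyoD-null to the other was 0.650 (0.426 to 0.963), and at chr1:89081383-89081762 it was 0.663 (0.455 to 0.954). The lowest ratio was at chr1:89135598-89136141, with 0.474 (0.248 to 0.828). Its folds were 3.40, 3.73, 5.46 and 2.59 in wild-type myoblasts, MyoD-null myoblasts, myocytes deposited as wild type and myocytes deposited as MyoD-null, on 31, 37, 38 and 18 reads. The opposite order was widest at chr1:89100973-89103258, also picked after its values were seen, with folds of 5.82 and 4.26 for the myocyte lists deposited as MyoD-null and as wild type, a ratio of 1.37 (1.04 to 1.78). Its strongest peak was the widest of the windows, at 2286 bp in myocytes deposited as wild type against 934 to 1457 bp in the other lists. Myocytes deposited as wild type had 1 peak across this region and each other list had 2, so these widths set a whole against a part. The region's summit reads in the myocyte lists were 123 as deposited for wild type and 108 for MyoD-null, over local backgrounds of 28.12 and 17.72. The list with the lower fold thus had more reads and the higher background.

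**Figure D3:**
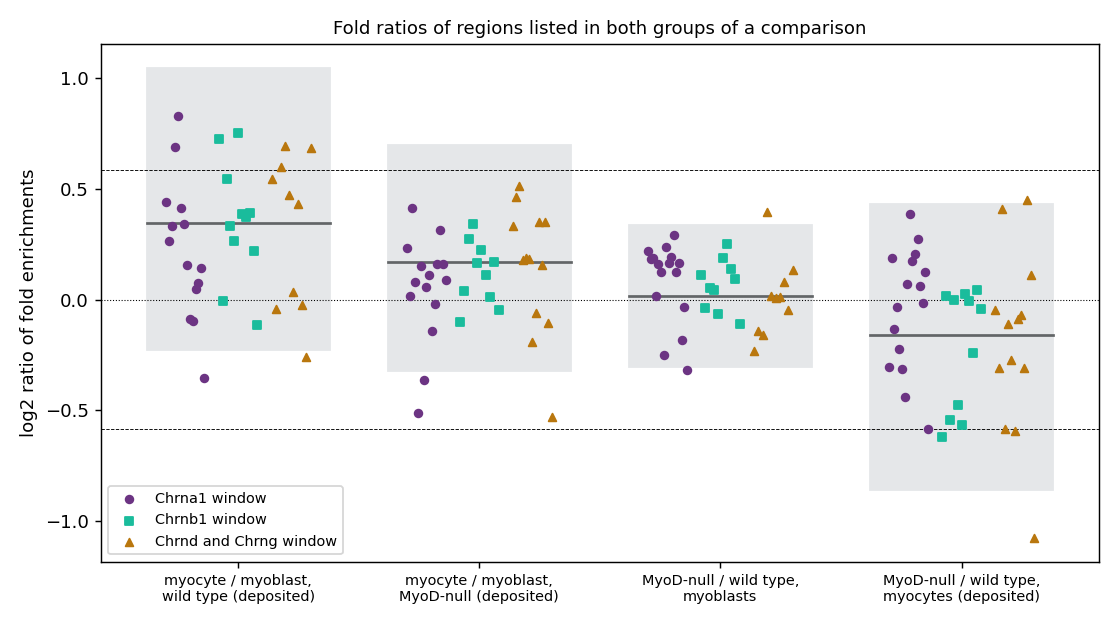
Log2 ratio of fold enrichments (y axis) for each region of the windows listed in both groups of a comparison (x axis, by the deposited labels), with 1 point per region and a symbol per window. Grey boxes span the 5th to 95th percentile of all shared regions genome-wide, the grey line is their median, and dashed lines mark ratios of 1.5 and 1/1.5. The MyoD-null over wild-type myoblast points lie between ratios of 0.803 and 1.32.

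Across the 31 regions of all 4 lists, the folds over local background varied less between lists than genome-wide. The highest fold divided by the lowest had a median of 1.31, against 1.42 genome-wide, and was 1.5 or more in 7 of 31 regions, 22.6%, against 40.3%. By window its median was 1.27 at Chrna1, 1.30 at Chrnb1 and 1.41 at Chrnd and Chrng. This spread was not computed with the genome-wide background. On that scale the median ratio of shared regions, as deposited, was 1.805 in wild-type differentiation, against 1.615 genome-wide. It was 1.239 in MyoD-null differentiation, against 1.281, and for MyoD loss 1.07 in myoblasts, against 1.016, and 0.773 in myocytes, against 0.791. The list deposited as wild-type myocytes had the highest fold in 17 of the 31, against 64.2% genome-wide, and that deposited as MyoD-null myocytes in 9, against 25%. Wild-type myoblasts had it in 3, against 4.58%, and MyoD-null myoblasts in 2, against 6.26%. The lowest fold was in wild-type myoblasts in 14 of 31, against 39.8%, and in MyoD-null myoblasts in 8, against 36%. The list deposited as wild-type myocytes had it in 6, against 8.95%, and that deposited as MyoD-null myocytes in 3, against 15.3%.

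Of the 7 regions of a single list, 6 were in the myocytes deposited as wild type, 1 at Chrna1, 3 at Chrnb1 and 2 at Chrnd and Chrng. They were 11.5% of the 52, against 16.3% of all regions. The remaining region, at Chrna1, was in the list deposited as MyoD-null myocytes, 1.92% against 3.42%. Apart from chr11:69602788-69603394, the other 6 regions had folds of 2.10 to 3.23 on 22 to 76 summit reads, where regions of a single list had median folds of 3.79 and 3.22 in the 2 lists. The list deposited as wild-type myocytes is also the longest and has the lowest genome-wide background, at which 15 reads sufficed for a peak, against 17 to 21 in the other lists. The part of that difference in the counts was not tested beyond cutting the lists to equal length.

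The window bounds decide a few members. At the start of the Chrna1 window, the wild-type myoblast summit of chr2:73359714-73360127 lay 3 bp inside with a fold of 2.70, while the summits of the same region lay 20 and 12 bp outside in myocytes deposited as wild type and as MyoD-null, with folds of 3.67 and 2.98. At the start of the window of Chrnd and Chrng, the first peaks inside had folds of 2.57 to 3.35 and the next peaks outside, 10797 to 10809 bp from the bound, had folds of 7.21 to 11.7. At its end the peaks just inside had folds of 2.59 to 5.46 and those just outside 4.39 to 6.63. At the ends of the Chrna1 and Chrnb1 windows the folds just inside were 2.80 to 6.55 and 2.11 to 3.50, and just outside 3.92 to 6.27 and 5.68 to 6.57. At the start of the Chrnb1 window they were 2.73 to 5.50 inside and 2.71 to 4.45 outside.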

How the data were processed

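Peaks were deposited as 4 lists, 1 per group of 3 ATAC-seq samples, grouped by the labels. Per the submitters' processing notes peaks refer to mm9, and MACS2 and deepTools are named without versions. For the aligner and for settings of the caller, values were not given in the sources used here. The peak names point to merged alignments, so replicates were pooled by the authors. The deposited fold is a ratio of summit pileup to local background, each plus 1, and the deposited −log10 p and −log10 q belong to each peak. The deposited score, the −log10 q times 10, was not used. The deposited summit distance is in bp from the peak's start. The number of columns of per-sample values left unused was 0.

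Peaks of the autosomes 1 to 19 and the sex chromosomes were joined over the 4 lists at an overlap of at least 1 bp, and a region's fold in a list is the highest of its peaks there. Region coordinates are 1-based. Whole summit reads and local backgrounds were solved from the fold and the Poisson −log10 p, to within 0.01 for 100% of peaks in every list, and recovered for 100% of 20000 simulated peaks. Read totals per sample are unknown. Ratios are called at 1.5 or 1/1.5, and their 95% intervals are exact and conditional on the summit reads of both lists. The software was scipy 1.17.1, matplotlib 3.10.9, pandas 2.3.3 and numpy 2.4.6 on Python 3.11.15.

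Regions given in full are the 4 of each window with the highest fold in any list, and any with a fold of at least 5 that is missing from a list. The members and lists were chosen with earlier results of these data known. Alternatives were stricter q and fold limits, lists of equal length, other overlap rules, wider windows, division by the genome-wide median, the genotype by peak names and, chosen after seeing the data, the genome-wide background. A comparison of the subunit proteins was not made.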

Additional observations from a re-analysis of the deposited data

Results flagged for a closer look

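In 6 of the 31 regions of all 4 lists, 19.4%, the fold was higher in myocytes than in myoblasts for 1 genotype as deposited and lower for the other; genome-wide this holds for 29.1% of 65178 regions. Each difference was not tested, since every group has 1 list. In all 6 regions the counting intervals of both ratios as deposited included 1, so counting error alone leaves these directions unresolved. At chr1:89135598-89136141 the intervals were 0.980 to 2.69 in the wild type and 0.362 to 1.22 in the MyoD-null. The ratio in the wild type divided by that in the MyoD-null was 0.873 at chr2:73410444-73411301 (0.943 and 1.08), 0.736 at chr2:73447122-73448159 (0.782 and 1.06) and 0.682 at chr1:89055984-89056336 (0.972 and 1.43). It was 1.07 at chr1:89083044-89084029 (1.02 and 0.960) and 0.773 at chr1:89100973-89103258 (0.985 and 1.27). The widest was 2.32 at chr1:89135598-89136141, where the ratio was 1.61 in the wild type and 0.694 in the MyoD-null as deposited, and 0.762 and 1.46 by the peak names. With the genotype by peak names, both ratios lay below 1 at chr2:73447122-73448159 (0.8535 and 0.9744) and above 1 at chr1:89055984-89056336 (1.29 and 1.07). They stayed on opposite sides of 1 at chr2:73410444-73411301 (1.23 and 0.825), chr1:89083044-89084029 (0.965 and 1.02) and chr1:89100973-89103258 (1.35 and 0.932). The number of Chrna1-window peaks was lower in myocytes than in myoblasts for the wild type (17 and 18) and higher for the MyoD-null (19 and 17) as deposited, a difference of -3 between the changes, also not tested. These directions hold at the given window bounds: with windows wider by 25 kb both were higher in myocytes, 24 and 22 for the wild type and 25 and 21 for the MyoD-null. With a q of 1e-05 or lower the counts were 17 and 17, then 16 and 17. At the given bounds but with the genotype by peak names, they were 19 and 18 for the wild type and 17 and 17 for the MyoD-null. A wild-type myoblast summit lies 3 bp inside the start of that window, and the myocyte summits of the same region lie 20 and 12 bp outside.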

How the results depend on the processing

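No paired analysis was possible because each list merges the 3 replicates of its group, and for the same reason no replicate could be left out. Of 200 summary values recomputed under the alternatives, 145 stayed within the limits set for them, 50 moved beyond them and 5 changed direction. Requiring summits within 250 bp moved none of its 20. A fold of at least 5 left 5, 5, 6 and 6 peaks at Chrna1, 2, 2, 5 and 2 at Chrnb1, and 2, 2, 6 and 5 at Chrnd and Chrng (wild-type and MyoD-null myoblasts, then myocytes deposited as wild type and as MyoD-null). It left 1 region only in wild-type myoblasts in wild-type differentiation, with a median ratio of 1.055 and 0 regions higher, 0 only in MyoD-null myoblasts in MyoD-null differentiation, 0 in either direction between the myoblast lists, and in the myocyte comparison a median of 1.012, above 1, with 0 lower. Fewer regions enter at that limit.

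Windows wider by 25 kb on each side gave 17 wild-type myoblast peaks at Chrnd and Chrng. A reciprocal overlap of 50% gave 10 regions only in wild-type myoblasts and 4 higher in myocytes. A q of 1e-05 or lower gave 4 regions only in MyoD-null myoblasts against their myocytes, and 1 only in MyoD-null myocytes against the wild type. Lists cut to 88233 peaks gave 1 for the former, and 3 only in wild-type against MyoD-null myocytes. The causes of these moves were not tested.

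With the genotype by peak names, wild-type differentiation gave 7 regions only in myocytes, 2 only in myoblasts and 3 higher; MyoD-null differentiation gave 11, 4 and 6, with a median of 1.178; the myocyte comparison gave 7 only in MyoD-null, 4 only in wild type, a median of 1.042, 3 higher and 0 lower. The ratio at chr11:69566159-69566675 then became 1.54. These follow from exchanging the lists. Divided by the genome-wide median, the median ratio was 0.989 for wild-type differentiation, with 0 higher and 2 lower, 0.991 for MyoD-null differentiation, with 2 lower, and 1.07 in myocytes, with 1 higher and 1 lower. With the genome-wide background and the deposited label, the medians were 1.805, 1.239 and 0.773, with 29 higher, then 6 higher and 2 lower, then 1 higher and 9 lower. Regions within counting error of each other or of the listing limit cannot be ordered at this depth.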
